A study of Mus musculus with 16 samples.

Results

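The genes described here are 10 core members of the mammalian circadian clock: Arntl, Per1, Per2, Per3, Cry1, Cry2, Ciart, Nr1d1, Nr1d2 and Dbp. They were found on the arrays by gene name among the non-control probes, which gave 14 probes for 10 genes out of 55681 probes in all. Each of the 14 probes was bright enough to be tested, as were 35144 probes overall. RNA from the hypothalamus of 16 mice was hybridised to 1-colour Agilent arrays, 1 mouse per array, with 8 control mice and 8 mice that the submitters call KO chimeras. All were C57BL/6J mice labelled as irradiated with 950 Rad. The KO chimeras carried marrow of Adrb1tm1BkkAdrb2tm1Bkk/J mice, which lack the beta-1 and beta-2 adrenergic receptors, injected once behind the eye and followed by 2 to 3 months of recovery. A ratio of 1 (knockout) to 4 (C57BL/6J) is stated, and what it counts is not. If it is a mixture of marrow, most transplanted cells may have carried intact receptors, and the share of knockout blood cells in the recipients is not given. The knockout reached the recipients through marrow only, so it does not extend to the cells that formed their brains. The treatment text is the same for all 16 mice, and only the KO chimeras have an entry for the strain of the marrow, so whether the controls received marrow, and of which kind, is not settled. Whether KO chimeras shared marrow donors is not given either, and p-values measure the spread between these mice. The labels used here give no sex, no age and no time of day at which the tissue was taken.

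The circadian clock is a feedback loop of transcription that runs in nearly every cell of the body. ARNTL (also called BMAL1) pairs with CLOCK and switches on genes through a DNA motif called the E-box. Among those genes are the Period and Cryptochrome genes and Ciart, whose proteins then hold ARNTL and CLOCK back, and Dbp, an output gene. In a second loop, NR1D1 and NR1D2 (REV-ERB alpha and beta), also under E-boxes, repress Arntl. In the hypothalamus the suprachiasmatic nucleus sets the phase for the rest of the brain. Because Arntl and the E-box-driven genes peak at nearly opposite times of day, samples taken at different phases can differ in opposite directions for the 2 arms.

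The promoters of the members carry these motifs unevenly, and those with an E-box or a D-box are shown. A match in so short a window does not tell a gene's place in the loop. Dbp and Nr1d1, described above as under E-boxes, held no E-box there. Sequences are the 250 bases before the transcription start in RefSeq's mouse table (GRCm38.p6), which held 11 promoters for 9 of the members. Per2 was not in the table. Both strands were searched for the E-box (CACGTG), for the D-box (TTATGTAA or TTACGTAA), which DBP binds, and for AGGTCA, the half-site that NR1D1 and its activating counterparts bind. None of these motifs overlapped another in the sequences shown. Capitals mark the matches, and all sequences run 5′ to 3′ on the strand of the gene.
Ciart, chr3:95882229-95882478, minus strand: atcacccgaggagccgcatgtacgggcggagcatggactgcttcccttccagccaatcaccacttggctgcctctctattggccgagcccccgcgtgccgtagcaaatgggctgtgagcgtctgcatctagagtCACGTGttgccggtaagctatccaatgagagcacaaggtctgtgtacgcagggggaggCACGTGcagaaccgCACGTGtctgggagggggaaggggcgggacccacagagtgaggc
Cry1, chr10:85185055-85185304, minus strand: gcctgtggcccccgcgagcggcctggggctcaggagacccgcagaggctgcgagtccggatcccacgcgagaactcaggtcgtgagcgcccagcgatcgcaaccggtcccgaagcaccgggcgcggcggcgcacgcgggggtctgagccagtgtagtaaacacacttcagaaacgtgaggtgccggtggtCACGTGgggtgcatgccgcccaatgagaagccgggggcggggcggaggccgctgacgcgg
Per1, chr11:69098699-69098948, plus strand: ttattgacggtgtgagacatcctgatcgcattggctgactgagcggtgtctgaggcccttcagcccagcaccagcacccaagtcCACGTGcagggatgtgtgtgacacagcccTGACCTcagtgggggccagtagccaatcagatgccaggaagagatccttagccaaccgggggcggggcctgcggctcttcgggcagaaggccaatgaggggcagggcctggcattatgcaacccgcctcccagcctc
Per3, chr4:151044666-151044915, minus strand: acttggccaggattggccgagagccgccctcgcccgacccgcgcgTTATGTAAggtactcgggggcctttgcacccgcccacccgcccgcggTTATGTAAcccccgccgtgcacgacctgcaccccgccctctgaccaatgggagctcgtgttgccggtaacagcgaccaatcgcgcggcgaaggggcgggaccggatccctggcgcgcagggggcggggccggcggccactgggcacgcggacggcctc
Ciart held 3 E-boxes, at 116, 58 and 44 bases before the start. Only 20 of the 32851 promoters in the table (0.0609%) held as many, and 6.02% held at least 1. Cry1 held 1 E-box at 60 bases, and the promoter of Per1 shown held 1 at 166 bases and a half-site at 137 bases. The D-box occurred 2 times in Per3, at 205 and 158 bases, and in 0.931% of all promoters. A half-site was also found in Nr1d2, 77 bases before the start, and in 14.0% of all promoters. The windows of Arntl, Cry2, Dbp and Nr1d1 held none of these letters, which says nothing of sites elsewhere in those genes.

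Values below are log2 of the scanner's processed signal minus the array's 75th percentile, so a value of 0 is as bright as the probe at that rank. Differences are KO chimera minus control, fitted with limma over all 35144 probes, and a probe was called at a Benjamini-Hochberg adjusted p under 0.05. Over all probes 908 were called (2.58%), 629 lower (1.79%) and 279 higher (0.794%) in KO chimeras, and 7013 (20%) had an unadjusted p under 0.05. The number of probes called, 908 with all 16 mice, ran from 268 without control replicate 5 to 1120 as single mice were left out. Among the clock genes 2 of 14 probes were called, both lower in KO chimeras: the single Ciart probe and the brighter of the 2 Cry2 probes. The members were chosen with earlier results of these data known, so this count is a description. By genes, taking the brightest probe of each, 7 of 10 members had a negative difference and 3 a positive one, with a median of −0.23. By the same count over all genes with a symbol, 9315 of 16881 had a negative difference and the median was −0.02 (0.02 over all probes). With the array median in place of the 75th percentile, all probes together moved to a median of −0.11, 4509 probes were called and 5.34% of them were higher, against 30.7% in the main scaling. By that scaling 7 member probes were called, all lower: those of Ciart, Cry1, the brighter probes of Cry2, Nr1d2 and Per1, and both of Dbp. With normexp background correction 209 probes were called, 10.5% of them higher, and among the members the brighter Cry2 probe alone passed.

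**Figure D1:**
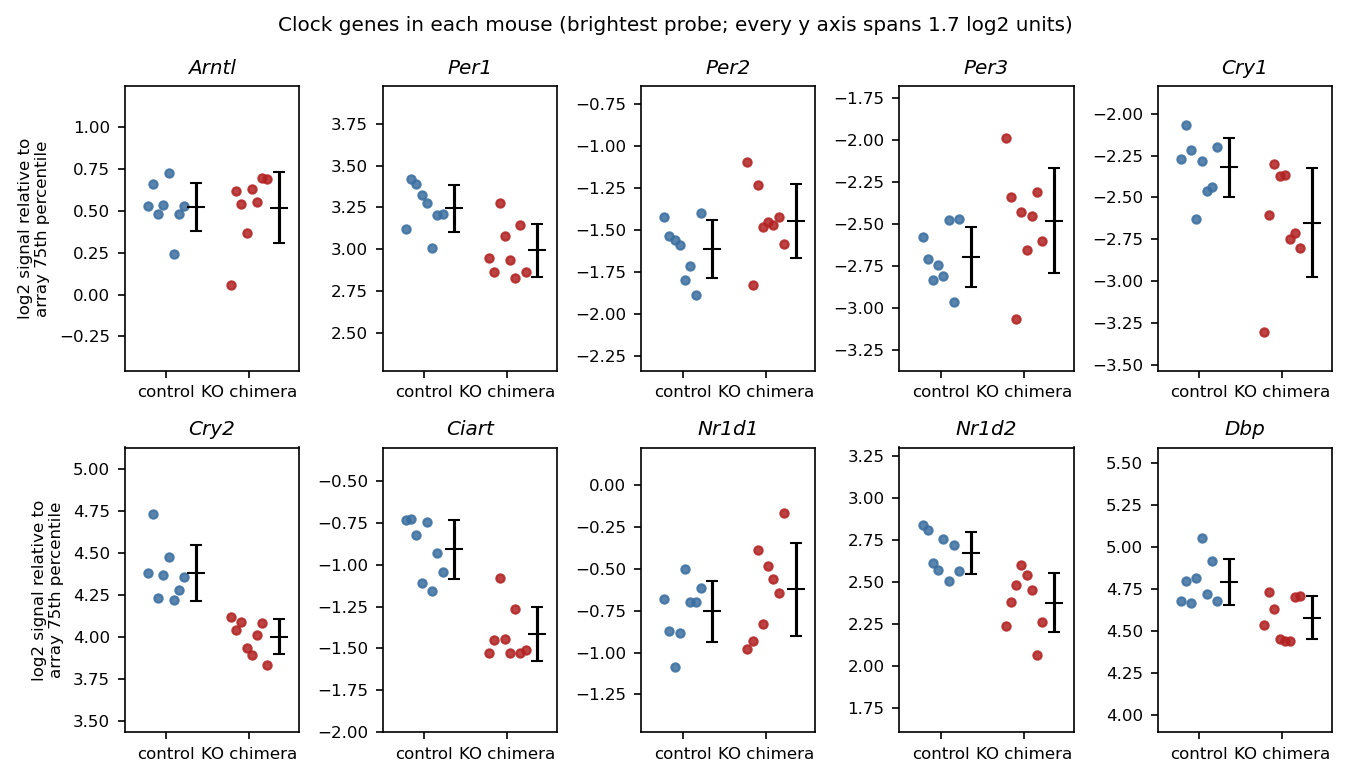
Signal of each clock gene in each mouse (brightest probe; log2 signal minus the 75th percentile of the array; every axis spans the same number of log2 units). Points are single mice, blue for control and red for KO chimera, and bars give the mean and SD of 8 mice. The groups are apart for Cry2, nearly so for Ciart, and overlap for Arntl, whose means are 0.52 in both groups.

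Arntl, the activator, did not differ detectably between the groups. Its probe (chr7:120457261-120457320, mm9, plus strand) gave 0.24 at the lowest, 0.53 at the median and 0.72 at the highest in control mice. In KO chimeras the lowest was 0.06, the median 0.59 and the highest 0.69. The ranges cover each other, and the lowest mouse of all 16 was KO chimera replicate 1. The difference was −0.00 ± 0.09 (SE; limma adjusted p = 0.987), with a 95% interval from −0.20 to 0.19. Within the 5 slides that held both groups the differences ran from −0.47 to 0.23, and 2 of 5 were negative. Its sign changed in 10 of 35 alternative settings, none of which called it. Clock, the partner of Arntl, differed by −0.04 (limma adjusted p = 0.760).

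Among the repressors, Ciart fell. Ciart (also known as Chrono) encodes a repressor that binds ARNTL, and its probe lies at chr3:95682433-95682492 (mm9, minus strand). The probe shares stretches of 15 bases with 1 promoter and 2 array probes of other genes. Control mice measured −1.16 at the lowest, −0.88 at the median and −0.72 at the highest. KO chimeras measured −1.53, −1.48 and −1.08 in the same order. All but 1 of the KO chimeras lay below every control mouse, the exception being replicate 3, and all 8 lay below the control median. The means were −0.91 ± 0.18 in control and −1.41 ± 0.16 in KO chimeras (SD, n = 8 each). The difference was −0.51 ± 0.09 (SE; limma adjusted p = 0.0128), or 0.704 times the control level, with a 95% interval from −0.69 to −0.32. For this probe alone, exact two-sided permutation of the 12870 ways to divide the mice gave p = 0.000466. Ciart ranked 58 by p among all probes tested. It was lower in each of the 5 slides, by −0.44 to −0.78. Within the scan days, which held 4 mice of each group, it differed by −0.60 and −0.42, and limma called 0 probes of any gene in either day (3791 and 4821 at an unadjusted p under 0.05). It did not pass with normexp background correction (−0.32, adjusted p = 0.0740).

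Cry2, one of the cryptochromes that silence ARNTL and CLOCK, fell on its brighter probe and not on its dimmer one. The brighter probe (chr2:92243807-92243866, mm9, minus strand, from the RefSeq transcript) gave 4.22, 4.36 and 4.73 as the lowest, median and highest control values. The KO chimeras gave 3.83, 4.03 and 4.12. Every KO chimera lay below every control mouse, a separation that 0.714% of all probes showed in this direction. The means were 4.38 ± 0.17 and 4.00 ± 0.10 (SD, n = 8 each), and the difference was −0.38 ± 0.07 (SE; limma adjusted p = 0.0206; 95% interval −0.54 to −0.22). The exact permutation p of 0.000155, two-sided, is the smallest that 8 mice against 8 can give. The probe was lower in each of the 5 slides (−0.24 to −0.61) and in both scan days (−0.47 and −0.30). The dimmer Cry2 probe (chr2:92251417-92251476) was designed on another transcript of the gene. Unlike the brighter one, it shares stretches of 15 bases with 8 promoters and 1 array probe of other genes. It measured 0.03 ± 0.30 in control and 0.18 ± 0.32 in KO chimeras, a difference of 0.16 ± 0.15 (SE; limma adjusted p = 0.585). The fall of Cry2 thus rests on 1 of its 2 probes, whose residuals around the group means correlated at r = 0.30 over the 16 mice.

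Both calls were kept when any single mouse was left out, with adjusted p of 0.0110 to 0.0307 for Ciart and 0.0213 to 0.0473 for Cry2. With the slide as a fixed block they passed at 0.0404 and 0.0462, where 0.714% of all probes were called. Within the scan days 7 and 4 of the 14 member probes had an unadjusted p under 0.05, beside 7 over all 16 mice, and 0 were called by limma. Among all probes 3791 of 35143 and 4821 of 35144 had such a p within the scan days, and 7013 of 35144 over all 16 mice.

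Cry1, the other cryptochrome, gave a difference of the same sign that did not pass. Control values were −2.63, −2.28 and −2.07 and KO chimera values −3.30, −2.66 and −2.30 (lowest, median and highest). All 8 KO chimeras lay below the control median and 4 below every control mouse. The probe was well above background in all 8 control mice and in 7 KO chimeras. The exception was KO chimera replicate 1, which gave the lowest value. The difference was −0.33 ± 0.13 (SE; limma adjusted p = 0.156). It was −0.56 in the first scan day and −0.10 in the second, and −1.10 between the single pair of mice on slide 4, KO chimera replicate 1 and control replicate 8. Those are the arrays with the fewest and the most spots well above background, 27276 and 43248 of 59305. Without KO chimera replicate 1 Cry1 differed by −0.24 (adjusted p = 0.198).

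The Period genes, whose proteins bind the cryptochromes, did not move in one direction, and none was called. The brighter Per1 probe had a negative difference, Per2 and Per3 positive ones. The brighter Per1 probe (chr11:68923364-68923423) measured 3.01, 3.24 and 3.42 in control and 2.83, 2.94 and 3.27 in KO chimeras (lowest, median, highest). The ranges overlap, with 5 KO chimeras below all controls. The difference was −0.25 ± 0.08 (SE; limma adjusted p = 0.0884; 95% interval −0.42 to −0.08), negative in all 5 slides (−0.07 to −0.50). The dimmer Per1 probe lay close to background, well above it in 6 control mice and 4 KO chimeras, and differed by −0.12 ± 0.20. Per2 measured −1.61 ± 0.17 in control and −1.44 ± 0.22 in KO chimeras (SD, n = 8 each). Its difference was 0.17 ± 0.10 (SE; limma adjusted p = 0.353; 95% interval −0.04 to 0.38), positive in 4 of 5 slides. Per3 measured −2.70 ± 0.18 and −2.48 ± 0.31, a difference of 0.22 ± 0.12 (SE; limma adjusted p = 0.340; 95% interval −0.04 to 0.48). KO chimera replicate 1 had the highest Per2 and the highest Per3 of all 16 mice, at −1.09 and −1.98. Without it the differences of Per2 and Per3 were 0.12 and 0.15.

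The nuclear receptors of the second loop also gave differences of opposite sign. Nr1d1 (probe over 503 bases of genome at chr11:98630526-98631028, minus strand) measured −1.08, −0.70 and −0.50 in control and −0.98, −0.60 and −0.17 in KO chimeras. The groups overlap over most of their range. The difference was 0.13 ± 0.12 (SE; limma adjusted p = 0.554; 95% interval −0.11 to 0.37). The brighter Nr1d2 probe (chr14:19036568-19036627) gave 2.51, 2.67 and 2.84 in control and 2.06, 2.42 and 2.60 in KO chimeras. All 8 KO chimeras lay below the control median, and 6 lay below every control mouse. The difference was −0.30 ± 0.08 (SE; limma adjusted p = 0.0564; 95% interval −0.47 to −0.13), negative in all 5 slides and larger in the first scan day (−0.44) than in the second (−0.15), a contrast that was not tested. Nr1d2 is a borderline case: it passed in 7 of 35 alternative settings, among them the fit of 1 probe per gene (adjusted p = 0.0473), where 3.8% of genes were called. Its dimmer probe differed by −0.18 ± 0.09 (adjusted p = 0.303), and the residuals of both probes correlated at r = 0.53 over the 16 mice.

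Dbp, which encodes an output factor that binds D-boxes, is the brightest member on the array, though brightness cannot be compared between probes as a level of RNA. Its probes lie close together on chromosome 7 (starts 52965461 and 52965322, mm9, plus strand). The brighter one measured 4.67, 4.76 and 5.05 in control and 4.44, 4.58 and 4.73 in KO chimeras. All 8 KO chimeras lay below the control median and 5 below every control mouse. The differences were −0.21 ± 0.07 and −0.18 ± 0.07 (SE; limma adjusted p = 0.113 and 0.187), and each was negative in all 5 slides. Neither Dbp probe was called outside the scaling by the array median.

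**Figure D2:**
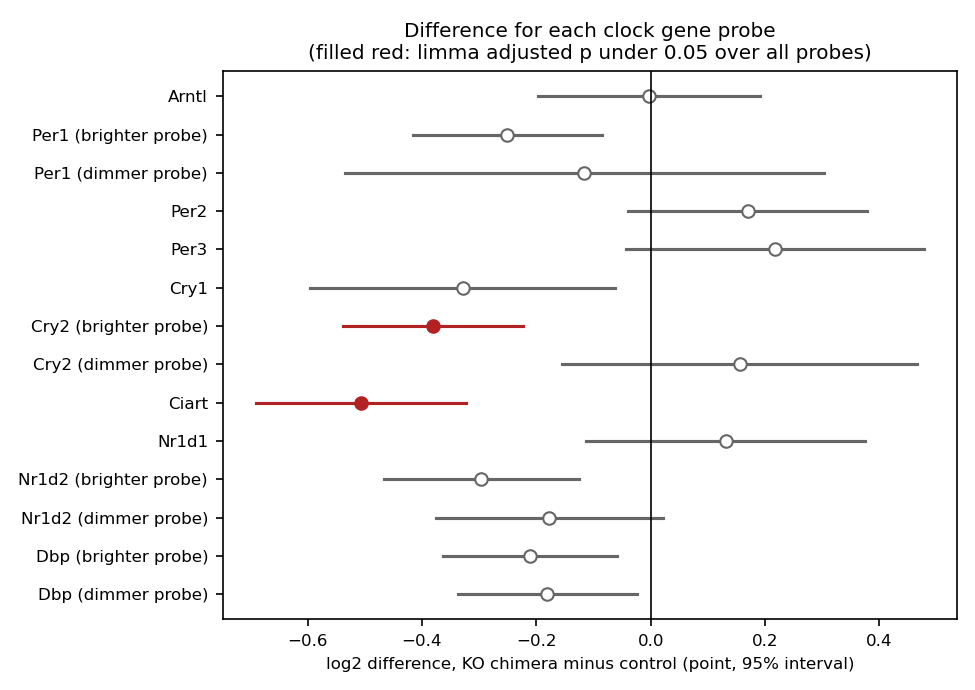
Difference of each of the 14 clock gene probes, KO chimera minus control, in log2 units, with its 95% interval. Filled red points mark the probes called by limma over all probes, Ciart at −0.51 and the brighter Cry2 probe at −0.38.

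**Figure D3:**
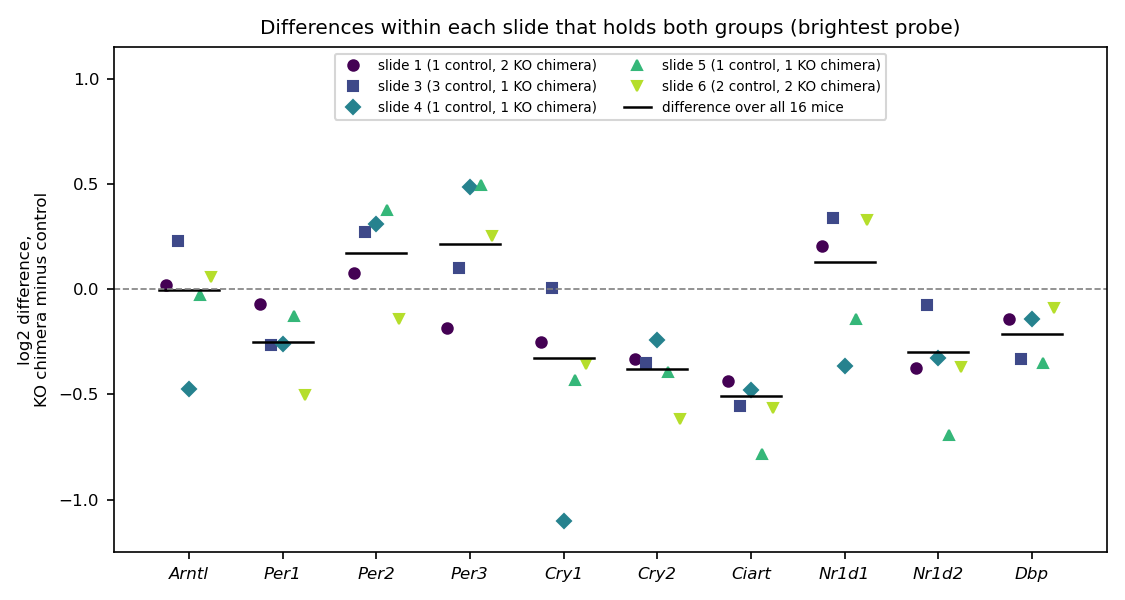
Difference between the group means within each slide that held both groups (brightest probe; log2 units), with a bar at the difference over all 16 mice. The 5 slides lie below 0 for Per1, Cry2, Ciart, Nr1d2 and Dbp and on both sides of 0 for the other 5 genes. Slides 4 and 5 hold 1 mouse of each group.

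The arms of the loop were set side by side by subtracting Arntl from the mean of 7 E-box-driven members (Ciart, Dbp, Nr1d1, Nr1d2, Per1, Per2 and Per3) in each mouse. Of these 7, 4 had a negative difference and 3 a positive one, with a median of −0.21, while Arntl stood at −0.00. The cryptochromes were not in this set; Cry1 (−0.33) and the called Cry2 (−0.38) were both negative, so with them 6 of 9 were. The contrast ran from 0.02 to 0.36 in control mice, with a median of 0.14. In KO chimeras it ran from −0.13 to 0.54, with a median of −0.04. The groups overlap, and the highest value of all 16 mice was again KO chimera replicate 1. The group means differed by −0.10, beside SDs of 0.10 in control and 0.23 in KO chimeras, and by −0.17 without that mouse. No opposite change of Arntl was detected beside the calls of Ciart and Cry2, and Per2, Per3 and Nr1d1 did not share the sign of Ciart. With no time of day in the labels and 1 sample per mouse, no phase can be assigned to a mouse. A difference in phase between the groups was not tested.

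The relation between the arms was also looked at from mouse to mouse, over the residuals from the group means (n = 16). Pearson's r of Arntl with the other 9 members ran from −0.49 for Per3 to 0.51 for Cry1. None of the 9 relations passed after adjustment (100000 permutations; the lowest Benjamini-Hochberg adjusted p was 0.179 for r and 0.457 for Spearman's rho). Cry1 alone had an unadjusted permutation p under 0.05, 0.0456 for r. The values for Cry1 and Per3 rested on few mice: without the 2 mice farthest from the median of Arntl they were −0.16 and 0.06. Dbp gave r = 0.45 (rho 0.39; adjusted permutation p = 0.179 and 0.553), 0.59 without those 2 mice, 0.68 within the first scan day and 0.05 within the second. Nr1d1 gave r = 0.48 (rho 0.50; adjusted permutation p = 0.179 and 0.457), with 0.56 in the first scan day and 0.26 in the second. Among the relations within single groups or scan days, 1 passed on rank, that of Arntl and Cry2 in the 8 control mice. There they gave rho = 0.93 (exact permutation p = 0.00223, adjusted 0.0201) and r = 0.75 (adjusted permutation p = 0.145). Each adjustment covered only the 9 relations within its own set of mice. Over all 16 mice the pair gave rho = 0.29 (adjusted permutation p = 0.553). In the 8 KO chimeras the same pair gave rho = −0.45, and the difference between the groups was not tested.

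Over all 45 pairs of members the residual r ran from −0.56 to 0.60, and 29 pairs were positive. The highest was Ciart with Nr1d2. The genes most like a member in this measure, out of 16834 with a symbol, were on neither list of clock genes. For Arntl they were Ankub1, Tipin and Sec23a (r = 0.90, 0.88 and 0.88). For Dbp they were Tmem229b, Gdap2 and Gm13271 (0.90, 0.89 and 0.88), and for Ciart Acsl3, Prr9 and Pef1 (0.81, 0.80 and 0.79). The genes of a mouse were measured on the same array, with its slide and normalization in common, and these values are a description. Nr1d2 ranked 219 among the genes most like Ciart, and Cry1 ranked 2079 among those most like Arntl.

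Beyond the 10 members, 25 other genes of the clock were measured, among them Clock and Npas2, the ROR receptors, the kinases and ubiquitin ligases that act on Period and Cryptochrome proteins, and output factors. By limma 0 rose and 2 fell, Csnk1e and Usp2. At an unadjusted p under 0.05, 0 rose and 4 of the 25 fell, where 20% of all probes tested had such a p in either direction. Over all genes with a symbol 100 rose and 478 fell of 16881. The median of the 25 was −0.08 and 19 differences were negative (brightest probe of each), beside −0.02 and 9315 of 16881 over all genes. Csnk1e encodes casein kinase 1 epsilon, which phosphorylates Period proteins and marks them for breakdown. Its probe at chr15:79248330-79248389 measured 2.08, 2.20 and 2.51 in control and 1.74, 1.84 and 1.93 in KO chimeras. The groups did not overlap, a separation that 0.714% of all probes showed in this direction. The difference was −0.39 ± 0.06 (SE; limma adjusted p = 0.0107), negative in all 5 slides. Of the other Csnk1e probes, 1 gave −0.12 (adjusted p = 0.303), the same sign without a call. The last gave 0.43 (adjusted p = 0.390) but lay near background, well above it in 4 control mice and 4 KO chimeras.

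Usp2 encodes a ubiquitin protease that is itself a clock output. On its 1 probe (chr9:43903649-43903708) it measured 1.34, 1.58 and 2.14 in control and 0.72, 1.02 and 1.43 in KO chimeras, with 7 of 8 KO chimeras below every control mouse. The difference was −0.64 ± 0.13 (SE; limma adjusted p = 0.0243), negative in all 5 slides. It did not pass without KO chimera replicate 2 (−0.60, adjusted p = 0.0503) or without control replicate 5 (−0.58, adjusted p = 0.0529).

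The brightness of a probe went with its difference on these arrays, and the members were read against probes of like brightness. When the tested probes were divided into 10 groups by mean signal, the median difference fell from 0.16 in the dimmest to −0.07 in the brightest. Ciart, in group 5 of brightness (median 0.06), lay lower than all but 0.968% of the probes there. The brighter Cry2 probe, in the brightest group, lay lower than all but 1.51%. For Cry1, the brighter probes of Nr1d2 and Per1, and the brighter Dbp probe the shares were 3.47%, 5.81%, 8.79% and 10.6%. Per2, Per3 and Nr1d1 did not lie at the edge of their groups, with 74.4%, 77.2% and 74.6% of probes below them. With cyclic loess normalization, which takes out a trend with brightness and was added after the data were seen, Ciart (−0.53, adjusted p = 0.0147) and Cry2 (−0.31, adjusted p = 0.0429) were still called.

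**Figure D4:**
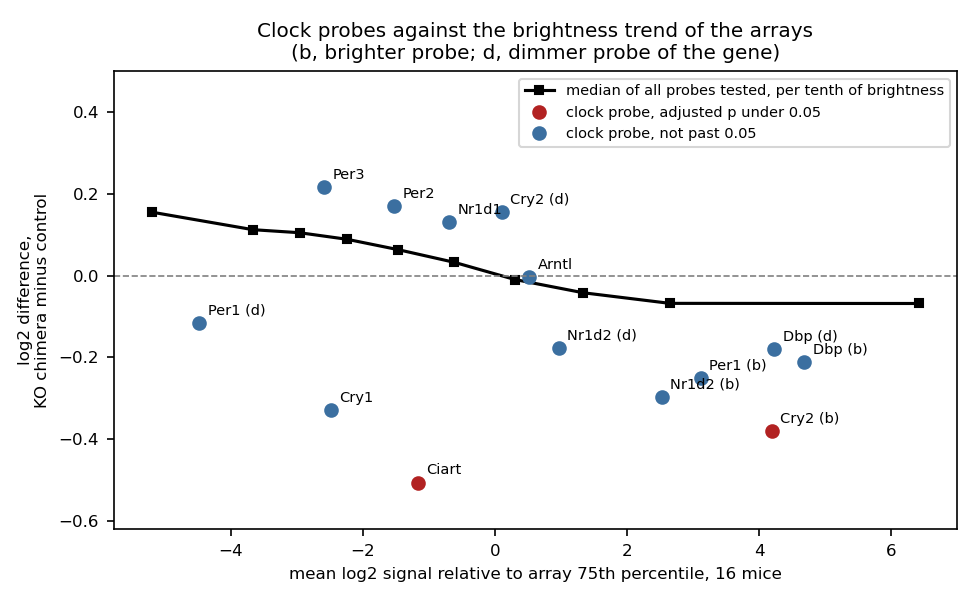
Difference of each clock gene probe (KO chimera minus control, log2) against its mean log2 signal minus the 75th percentile of the array. Black squares give the median difference of all tested probes in each of 10 groups of equal size by brightness, from 0.16 to −0.07. Ciart and the brighter Cry2 probe, in red, are the members called.

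The tissue was checked with marker genes, and some of these moved with the groups. The counts at an unadjusted p under 0.05 stand beside 20% of all probes tested with such a p. Of 16 markers of the hypothalamus 15 were bright enough to be tested and 0 were called by limma (3 at an unadjusted p under 0.05; median 0.14). All 10 markers of the suprachiasmatic nucleus were tested, 0 were called (1 at an unadjusted p under 0.05; median 0.12), and their mean score ran from −0.39 to 0.39 in control and from −0.55 to 0.66 in KO chimeras. That list includes Rorb, which is also in the clock list, and Rgs16, also taken as a thalamus marker. Markers of the neighbouring thalamus were tested for all 12 genes, of which 11 were negative and 1 positive. By limma 1 was called lower (Adarb1, −0.62, adjusted p = 0.0451), and 5 were lower at an unadjusted p under 0.05. Among these 5, Prkcd differed by −1.87 and Ramp3 by −1.64 (limma adjusted p = 0.0509 and 0.0785). The median of the 12 was −0.51, and their score ran from −0.89 to 1.29 in control and from −1.10 to 0.27 in KO chimeras. Of 12 oligodendrocyte genes 10 were negative and 2 positive, Mbp (0.07) and Ermn (0.09). By limma 4 fell (478 of 16881 over all genes), among them Mal (−0.66), Mobp (−0.68) and Cldn11 (−0.48). At an unadjusted p under 0.05, 6 were lower. The score of the 12 ran from −0.14 to 0.46 in control and from −0.32 to 0.06 in KO chimeras. By limma 0 genes were called in the lists of cortex and hippocampus (6 tested), striatum (7), pituitary (5) and choroid plexus (6), each with 1 gene at an unadjusted p under 0.05. The same held for ependyma and tanycytes (8 tested, all positive, median 0.50), with 5 such genes. With the thalamus score as a covariate Ciart differed by −0.40 and Cry2 by −0.35 (limma adjusted p = 0.115 and 0.129), and 6 probes in all were called (0.0171%). With the oligodendrocyte score they differed by −0.55 and −0.44 (adjusted p = 0.257 and 0.277), and 2 probes in all were called (0.00569%). Neither passed in these fits. Usp2 went to −0.32 (adjusted p = 0.110) with the thalamus score. Csnk1e stayed between −0.52 and −0.33 in all 35 alternatives and passed with neither score. Among members that were not called, Cry1 gave −0.29 with the thalamus score and −0.36 with the oligodendrocyte score. In the same order the brighter probes gave −0.28 and −0.25 for Nr1d2, −0.20 and −0.31 for Per1, and −0.18 and −0.16 for Dbp. The dimmer Dbp probe went from −0.18 to −0.08 with the thalamus score and −0.05 with the oligodendrocyte score. With the latter the dimmer Nr1d2 probe went from −0.18 to −0.02, Per2 from 0.17 to 0.06, the dimmer Cry2 probe from 0.16 to −0.04 and Nr1d1 from 0.13 to 0.21. Per3 went from 0.22 to 0.14 with the thalamus score, and the dimmer Per1 probe, near background, from −0.12 to −0.31. In pieces of whole tissue, fewer cells of a type and less RNA per cell cannot be told apart, and the part of these other cell types in the differences of the clock genes was not tested further.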

How the data were processed

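The authors deposited the scanner's processed intensity per spot for 16 hypothalami (Cy3, 1 colour), on a linear scale from which, per the file headers, the background had been taken off. The submitters' processing notes name Agilent Feature Extraction 10.7. A second deposited table holds log2 values; the step that normalized them is not stated. Labels gave the groups, except that 1 KO chimera with a misspelled title was placed by its source name.

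Spots marked as controls or outliers by the scanner were dropped. The log2 signal was set relative to the 75th percentile of its array, and the spots of each probe were averaged. A probe was tested if it was well above background on 8 or more arrays, with 4 or more usable values per group. The fit was lmFit and eBayes (limma 3.58.1, R 4.3.3), adjusted by Benjamini-Hochberg over all probes. Probe positions are those in the files (mm9). A list is counted by the brightest probe of each gene, and its score is the mean of its genes' centred values. The alternatives changed the normalization, background correction, source table, filter, probe choice, block, covariate, array weights, eBayes settings or threshold, or left out each mouse.

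The arrays lay on 6 slides, of which slide 2 held only KO chimera replicate 4, and were scanned on 2 days with 4 mice of each group per day. In simulated data of this comparison (35144 probes), 50.7% of 67 probes changed by 0.5, 86.6% of 67 changed by 1 and 98.5% of 66 changed by 2 were called, with 4 of 34944 unchanged probes. All members were described, with the pathway genes past the threshold, the 3 genes most like Arntl, Dbp and Ciart, and up to 3 markers per list; Clock was added for its role. The members, lists and tests were chosen with earlier results of these data known. Python 3.11.15 and matplotlib 3.10.9 drew the figures.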

Additional observations from a re-analysis of the deposited data

Results flagged for a closer look

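In the dimmer Dbp probe, KO chimera replicate 2 lay apart from the other KO chimeras: it measured 4.00, while the nearest of the other mice of its group measured 4.13. This was 1 of 28 groups of 8 mice examined among the 14 clock gene probes, and chance sets about 1 in 20 such groups apart. On the brighter Dbp probe the same mouse, at 4.73, was the highest KO chimera. The residuals of the Dbp probes correlated at r = 0.17 over the 16 mice.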

How the results depend on the processing

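No clock gene that was called changed its direction in any alternative. The number of member probes called, 2 in the main setting, was 7 with the array median as scale, 4 at a threshold of 0.1, 1 with normexp, and 0 within scan day 1, within scan day 2, with the thalamus score and with the oligodendrocyte score. It was 2 whichever single mouse was left out. For the 25 other clock genes the number was 6 with the array median and 0 within either scan day and with either score, and 1 to 2 when single mice were left out. Over all probes, 908 in the main setting, it was 522 with quantile normalization, 526 with cyclic loess, 551 in the deposited table, 4509 with the array median and 209 with normexp. It was 459 with no filter, 1503 with probes well above background on all 16 arrays, 251 and 1444 with the slide as a fixed and a random block, 1471 with trend and robust eBayes, 1407 with array weights and 2520 at a threshold of 0.1. It was 6 with the thalamus score, 2 with the oligodendrocyte score and 0 within each scan day. Leaving out single mice gave 268 to 1120; it was 348, 441, 308 and 499 without KO chimera replicates 2, 4, 6 and 7, and 504, 588, 587, 268 and 287 without control replicates 1, 2, 3, 5 and 7. The cause of these moves was not tested. Correlations between mice with the same replicate number ran from −0.07 to 0.23, and 3 of 8 mice matched best with their own number. With the number as a replicate block 700 probes, 2 member probes and 2 of the other clock genes were called, and Ciart and Cry2 passed at adjusted p of 0.0401 and 0.0466. The contrast of the E-box-driven members with Arntl, −0.10, stayed between −0.05 and −0.17. On Pearson's r 0 of 9 relations with Arntl passed in any setting. On rank, Cry2 passed in the 8 control mice (adjusted permutation p = 0.0201). The number of arrays limits the precision: a change of 0.5 was recovered for 50.7% of simulated probes, so a clock gene that did not pass cannot be taken as unchanged. The dimmer Per1 probe is too near background to bear on Per1.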
